A study of Homo sapiens with 12 samples.

Results

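The checkpoint and CD28 family receptors examined here were 10 genes picked by symbol from the 17589 genes of the deposited table: PDCD1, CTLA4, LAG3, HAVCR2, TIGIT, CD96, CD226, CD28, ICOS and CD274. Their RNA levels were measured by bulk RNA-seq in 12 libraries labelled YT, an established human NK-like leukaemia cell line. There were 4 groups with 3 libraries each, without stimulation. All groups were transduced with lentivirus under the human EF1A promoter and sorted for eGFP, and by design they differed in the receptor carried. CTRL cells carried eGFP alone, and hnCD16 cells a high-affinity, cleavage-resistant CD16a (FCGR3A). FR1 cells carried that CD16a ectodomain fused to 2B4, DAP10 and CD3ζ signalling domains, and FR2 cells the fusion without 2B4. The groups were sorted bulk populations rather than single clones, and the study's methods speak of independent experiments for in vitro work in general without saying whether the 3 libraries of a group came from separate cultures. The p-values measure the spread between these libraries, part of which may be technical.

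These receptors are the brakes and accelerators of lymphocyte activation. CD28 and ICOS bind B7 family ligands and costimulate, and CTLA4 competes with CD28 for CD80 and CD86 and dampens activation. PD-1 (PDCD1), LAG-3 and TIM-3 (HAVCR2) are inhibitory, and PD-L1 (CD274) is the ligand of PD-1. TIGIT, CD96 and CD226 (DNAM-1) compete for nectin-type ligands such as PVR, with CD226 activating NK cells and TIGIT inhibiting them.

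The libraries held 17714550 to 18729013 counts, and 13657 genes passed the low-count filter, including all 10 receptors. Endogenous FCGR3A and the construct share sequence, and FCGR3A had 0 counts in the CTRL libraries, 453 to 480 in the hnCD16 ones, 559 to 567 with FR1 and 1012 to 1132 with FR2. The groups fell into pairs that stood far apart: the mean correlation across all genes was 0.998 within groups, 0.995 between CTRL and hnCD16, 0.995 between FR1 and FR2, and 0.867 across the pairs. The 10 T cell markers summed to 1578 to 1804 TPM (a level per transcript length) in CTRL and 1727 to 1788 in hnCD16 libraries, but to 51.6 to 54.7 with FR1 and 53.5 to 58.2 with FR2, whereas the 12 NK cell markers summed to 93.8 to 101.0, 84.4 to 92.0, 2525 to 2662 and 2463 to 2560. The labels call every library YT, yet CTRL and hnCD16 libraries had at most 4 counts of NCAM1, 5 of NCR1 and 13 of PRF1, all from the NK list. NCAM1 was low in the other pair too, at 29 to 42 counts in FR1 and 21 to 27 in FR2. The T cell gene CD3D had at least 7757 counts in CTRL and hnCD16 libraries and at most 3 in FR1 and FR2, where TYROBP was at 0. The NK list did not move as a whole: of its 11 tested genes, 7 were higher and 2 lower in FR1 against hnCD16, and 7 higher and 3 lower in FR2 against hnCD16. CD7 averaged 43.2 TPM with hnCD16 and 1.15 with FR1, and NCR3 9.96 and 1.36, while KLRD1, at 2.66 and 3.36, did not reach the fold threshold. NKG7 alone made up 1907 TPM of the FR1 sum and 1776 of the FR2 sum on average. Summed B cell markers reached at most 24.9 TPM and myeloid markers at most 6.80 TPM in any library. Whether both pairs are the same cell line was not tested. Every difference between the pairs below moved with this split, and the construct and the split cannot be told apart. Words such as rose and fell compare groups and do not describe a change within 1 cell population. In bulk RNA, fewer cells of a type and less RNA per cell cannot be told apart either.

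Between the pairs of groups, PDCD1, CTLA4, LAG3, HAVCR2, CD28 and CD274 were higher in FR1 and FR2, and CD226, CD96, ICOS and, in most comparisons, TIGIT were lower. A gene was counted as a differentially expressed gene (DEG) when it changed at least 2-fold (1 on the log2 scale) with an edgeR adjusted p of at most 0.05. All 10 receptors were DEGs of FR1 against hnCD16, where 38.3% of all tested genes were, with 6 higher (18.7% of all genes) and 4 lower (19.6%). All 10 were also DEGs of FR2 against hnCD16 (39.5% of all genes, 19.6% higher and 19.8% lower) and of FR1 against CTRL (38.0%, 18.3% and 19.8%), and 9 of 10 were DEGs of FR2 against CTRL (38.2%, 18.7% and 19.6%), TIGIT being the exception. These 4 comparisons share control or FR libraries, so they are not independent of each other. PDCD1, CTLA4, LAG3 and CD274 had 0 to 5 counts in every CTRL and hnCD16 library. They passed the low-count filter through FR libraries alone, and ICOS and TIGIT through CTRL and hnCD16 libraries alone. For these genes a call in that direction was favoured by the filter, so the receptor share does not measure enrichment. A filter of 10 counts in every library left HAVCR2, CD226 and CD28, all DEGs of FR1 against hnCD16, beside 2992 of 10758 genes.

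**Figure D1:**
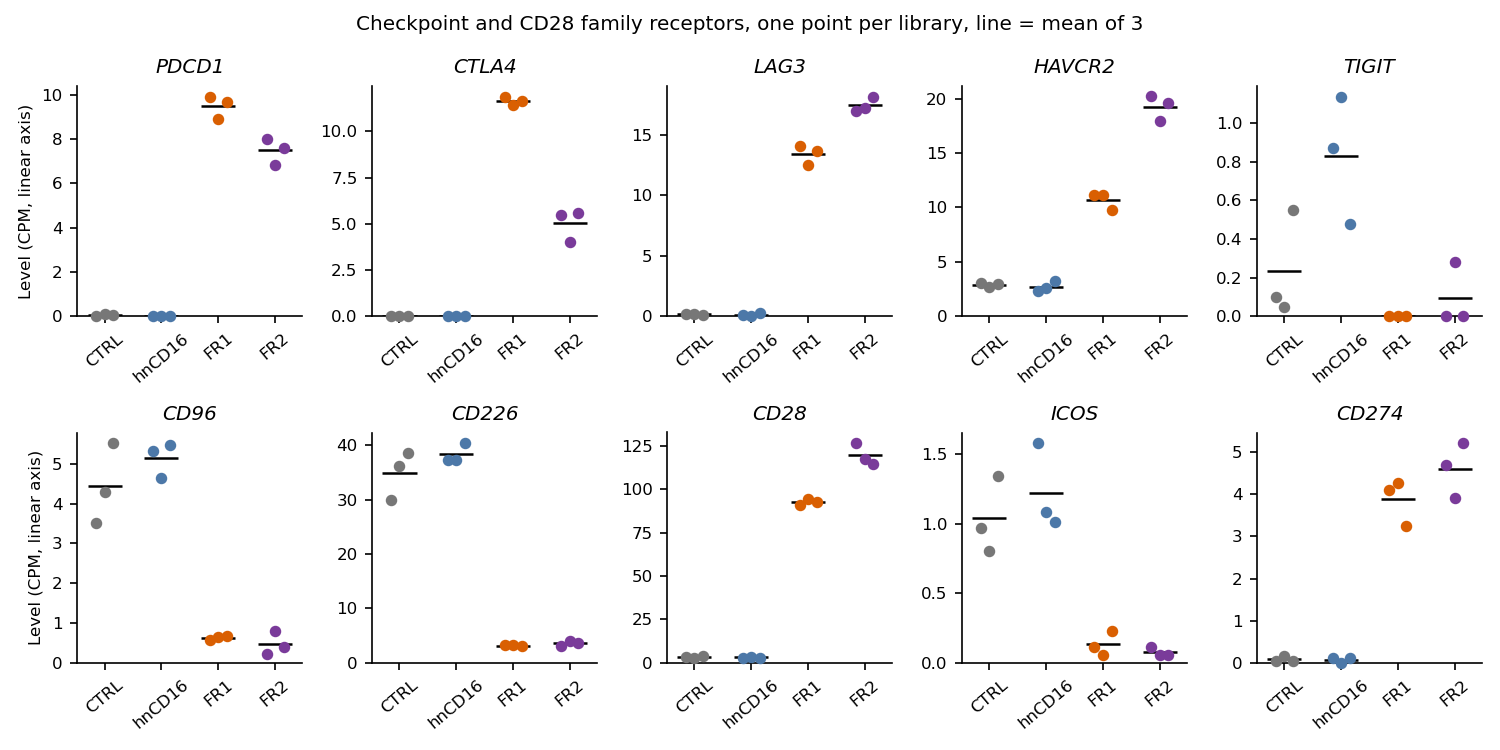
Level of each receptor gene in CPM (counts scaled to the library size, linear axis from 0, a separate scale for each gene) in the 3 libraries of CTRL, hnCD16, FR1 and FR2. Points are libraries and lines are means: 6 genes sit high in FR1 and FR2, and CD226, CD96, ICOS and TIGIT sit high in CTRL or hnCD16.

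CD28, the founding costimulatory receptor, rose most in absolute level. Its read counts were 60, 56 and 74 in CTRL, 55, 66 and 51 in hnCD16, 1572, 1627 and 1616 in FR1, and 2258, 2073 and 2004 in FR2. Every FR1 and FR2 library lay far above every CTRL and hnCD16 library. The mean level was 3.09 ± 0.436 CPM (counts scaled to the library size) in hnCD16, 92.4 ± 1.56 CPM in FR1 and 119.4 ± 6.15 CPM in FR2 (SD, n = 3). The log2 fold change was 4.90 ± 0.087 (SE) in FR1 against hnCD16, with an edgeR adjusted p of 1.34e-18. It was 5.27 ± 0.086 in FR2 against hnCD16, with an edgeR adjusted p of 4.50e-19. The reference transcript NM_006139 took 81.2% ± 3.89 of CD28 counts in FR1 and 80.6% ± 0.834 in FR2 (SD, n = 3).

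CTLA4, the inhibitory relative of CD28, had no counts in any CTRL or hnCD16 library. It had 205, 198 and 204 counts in FR1 and 98, 71 and 98 in FR2. The groups did not overlap, and FR1 lay above FR2. Against a floor of 3 counts in each hnCD16 library, CTLA4 RNA exceeded hnCD16 at least 72.1-fold for FR1, and at least 31.2-fold for FR2. RSEM, which divides reads among overlapping transcripts, assigned all FR1 counts to NM_005214, which encodes the membrane receptor. The shorter NM_001037631, which encodes the soluble form, was assigned counts in 1 library alone. That was an FR2 library in which it took 17.4% of the gene's counts. Such a split is an allocation and not a count of reads.

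ICOS, the inducible costimulator, moved the other way from its neighbours. It had 19, 16 and 27 counts in CTRL and 29, 20 and 19 in hnCD16, but 2, 1 and 4 in FR1 and 2, 1 and 1 in FR2. The pairs did not overlap, although ICOS was low in all 12 libraries. The log2 fold change was -3.12 ± 0.44 in FR1 against hnCD16, with an edgeR adjusted p of 4.22e-06. It was -3.90 ± 0.49 in FR2 against hnCD16, with an edgeR adjusted p of 1.04e-06. The value for FR1 became -3.71 without FR1 replicate 3, and leaving out any 1 library kept it between -3.71 and -2.78. On the log2(TPM + 1) scale the fall in FR1 was 0.75, under the 1 needed for a DEG. The ratio of ICOS to CD28 in TPM was 0.584 ± 0.0548 in CTRL and 0.730 ± 0.208 in hnCD16, and 0.00266 ± 0.00172 in FR1 and 0.00117 ± 0.000325 in FR2 (SD, n = 3). The ranges did not overlap between the pairs. Each exact permutation test across the pairs gave a two-sided p of 0.1, the smallest that 3 against 3 libraries allow. ICOS was lower and CD28 higher in every FR library, so this outcome was fixed in advance and adds no support.

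The 3 genes of the CD28 family lie in a row on the plus strand of chromosome 2 in GRCh38 (GENCODE). CD28 spans chr2:203706475-203738912, CTLA4 chr2:203853888-203873965 and ICOS chr2:203936763-203961577, with gaps of 115.0 kb and 62.8 kb. CD28 and CTLA4 were therefore higher, and ICOS lower, in the same FR libraries within one cluster. Of the 4 other tested protein-coding genes within 500 kb of CD28, 1 was a higher and 1 a lower DEG of FR1 against hnCD16. Of all tested genes, 18.7% were higher and 19.6% lower in that comparison. The 250 bases before the RefSeq start (GRCh38.p14) are shown for CTLA4 and ICOS because these neighbours moved in opposite directions, on the plus strand at chr2:203867521-203867770 and chr2:203936513-203936762. Capitals mark matches on either strand to the NFAT-type core GGAAA and the TCF-type core CTTTGA.
CTLA4 promoter: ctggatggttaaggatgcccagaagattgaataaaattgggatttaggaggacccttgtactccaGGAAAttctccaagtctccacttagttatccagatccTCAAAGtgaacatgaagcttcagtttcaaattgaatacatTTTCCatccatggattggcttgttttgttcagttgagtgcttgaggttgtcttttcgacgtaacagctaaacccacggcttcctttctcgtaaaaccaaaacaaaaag
ICOS promoter: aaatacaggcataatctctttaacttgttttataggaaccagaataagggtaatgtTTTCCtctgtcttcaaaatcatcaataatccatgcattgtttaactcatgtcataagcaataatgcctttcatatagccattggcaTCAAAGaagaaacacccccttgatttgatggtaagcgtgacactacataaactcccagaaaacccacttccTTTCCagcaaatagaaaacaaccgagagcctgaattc
Both windows held GGAAA at 2 places and CTTTGA at 1. Of 35116 RefSeq promoter windows of this length, 55.6% held GGAAA and 11.2% held CTTTGA on either strand. A match describes the letters and not a bound site.

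PDCD1 and CD274, a receptor and its ligand, were both close to 0 in CTRL and hnCD16 and higher in FR1 and FR2. PDCD1 had 0, 2 and 1 counts in CTRL, none in hnCD16, 171, 154 and 169 in FR1, and 143, 121 and 133 in FR2. Its levels did not overlap between any FR group and CTRL or hnCD16. Against a floor of 3 counts in each hnCD16 library, PDCD1 exceeded that group at least 58.7-fold for FR1 cells, and at least 46.3-fold for FR2 cells. Against the 3 counts summed over CTRL, the FR1 to CTRL ratio was 189, with a 95% exact interval of 64.2 to 918 that covers counting error only. The edgeR log2 fold change of FR1 against CTRL was 7.38, and 8.19 without CTRL replicate 2, which holds 2 of those 3 counts. Its lowest value on leaving out 1 library was 6.86. In all 3 FR2 libraries the PDCD1 counts lay on the reference transcript NM_005018, summed over its placements in the annotation. In FR1 libraries NM_005018 took 83.2%, 42.1% and all of the counts, with most of the remainder on the predicted XM_017004293, so this split varied between replicates.

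CD274 had 1, 3 and 1 counts in CTRL and 2, 0 and 2 in hnCD16, against 71, 74 and 57 in FR1 and 84, 69 and 91 in FR2. All FR libraries lay above all others, while FR1 and FR2 overlapped. Relative to hnCD16, CD274 differed by 5.63 ± 0.39 (SE) on the log2 scale in FR1, with an edgeR adjusted p of 2.99e-10. It was 5.87 ± 0.38 in FR2, with an edgeR adjusted p of 9.17e-11. NM_014143, the reference transcript, took 74.8% ± 6.30 of CD274 counts in FR1 and 86.1% ± 6.79 in FR2 (SD, n = 3), and NM_001314029 took the rest.

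CD274 lies at chr9:5450503-5470566 on the plus strand and PDCD1 at chr2:241849884-241858894 on the minus strand (GRCh38, GENCODE). Around CD274, 5 of the 7 other tested protein-coding genes within 500 kb were higher and 0 lower in both FR1 and FR2 against hnCD16. Of all tested genes, 18.7% and 19.6% were higher in those comparisons. The 5 were PDCD1LG2, RIC1, ERMP1, KIAA2026 and MLANA, with log2 fold changes in FR1 of 5.34, 1.92, 4.15, 2.87 and 1.66. The value for PDCD1LG2 (SE 1.15) rests on 4 to 5 counts per FR1 library against 0 in hnCD16. JAK2, at 0.16, and PLGRKT, at 0.70, fell short. Apart from PDCD1LG2, these neighbours were named after their values were seen. Around PDCD1, 1 of 10 such neighbours was higher and 3 were lower. Neighbours were counted around all 10 receptors. In FR1 against hnCD16, 11 were higher and 7 lower of 39 around LAG3, and 3 and 1 of 6 around HAVCR2. The counts were 2 and 2 of 5 around CD96, 0 and 3 of 7 around TIGIT, and 0 and 2 of 2 around CD226.

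The RefSeq promoter windows of the PD-1 receptor and its ligand are shown because both genes were close to 0 in CTRL and hnCD16 and higher together in FR1 and FR2. They are read 5′ to 3′ on the gene's strand, at chr2:241858895-241859144 (minus) for PDCD1 and chr9:5450292-5450502 (plus, ending before the first annotated exon) for CD274, in GRCh38.p14. Capitals mark matches on either strand to GGAAA, to the IRF-type GAAANNGAAA and to the STAT-type TTCNNNGAA.
PDCD1 promoter: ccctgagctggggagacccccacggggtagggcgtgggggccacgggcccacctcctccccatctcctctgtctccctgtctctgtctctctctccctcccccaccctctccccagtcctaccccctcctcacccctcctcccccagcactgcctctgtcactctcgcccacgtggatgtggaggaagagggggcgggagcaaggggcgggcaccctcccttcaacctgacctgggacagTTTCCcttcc
CD274 promoter: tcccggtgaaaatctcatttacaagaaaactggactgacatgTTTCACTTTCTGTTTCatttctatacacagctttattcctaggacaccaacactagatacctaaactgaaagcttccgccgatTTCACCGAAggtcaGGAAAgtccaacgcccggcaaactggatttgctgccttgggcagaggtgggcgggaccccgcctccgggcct
The PDCD1 window held GGAAA once and neither of the other motifs. The CD274 window held GAAANNGAAA at 2 overlapping places, TTCNNNGAA at 1 and GGAAA at 1. GAAANNGAAA was found in 3.02% and TTCNNNGAA in 6.57% of the 35116 RefSeq windows of 250 bases. CD274 was 1 of 8 receptor genes with a window in the table to hold GAAANNGAAA, LAG3 and HAVCR2 having no entry.

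LAG3 and HAVCR2, further inhibitory receptors, were also higher in the FR cells, and both were higher in FR2 than in FR1. LAG3, which binds MHC class II, had 4, 3 and 2 counts in CTRL, 2, 0 and 5 in hnCD16, 243, 217 and 239 in FR1, and 304, 304 and 317 in FR2. The pairs did not overlap, and FR2 lay above FR1. The log2 fold change was 6.66 ± 0.25 in FR1 and 7.04 ± 0.24 in FR2 against hnCD16, with edgeR adjusted p of 4.23e-14 and 8.72e-15. Without hnCD16 replicate 3, which holds 5 of the 7 hnCD16 counts, these became 7.78 and 8.16. The lowest values on leaving out 1 library were 6.11 and 6.48. HAVCR2, which encodes TIM-3, was, like CD28, already detected in the CTRL and hnCD16 libraries. It had 59, 54 and 59 counts in CTRL, 42, 48 and 61 in hnCD16, 192, 193 and 171 in FR1, and 362, 317 and 342 in FR2. Its groups did not overlap, apart from CTRL and hnCD16. Relative to hnCD16 it differed by 1.98 ± 0.12 on the log2 scale in FR1 and by 2.83 ± 0.12 in FR2, with edgeR adjusted p of 8.13e-11 and 1.43e-13. LAG3 lies at chr12:6772512-6778455 on the plus strand and HAVCR2 at chr5:157085422-157142869 on the minus strand.

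CD226, CD96 and TIGIT are the receptors for nectin-type ligands. CD226, the activating member, was the highest of the 10 genes in CTRL and hnCD16, with 586, 724 and 774 counts and 687, 692 and 762 counts. It had 55, 57 and 53 counts in FR1 and 56, 70 and 62 in FR2. The pairs were far apart and did not overlap. Relative to hnCD16 the log2 fold change of CD226 was -3.60 ± 0.11 in FR1 and -3.44 ± 0.11 in FR2, with edgeR adjusted p of 3.91e-15 and 4.98e-15. CD226 lies at chr18:69831158-69961803 on the minus strand.

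The transcripts of CD226 differed along with its level. The predicted XM_005266642 took 43.6% ± 8.30 of CD226 counts in CTRL and 43.4% ± 4.19 in hnCD16 (SD, n = 3). In all FR1 and FR2 libraries it is listed at 0. The reference NM_006566 took 19.6% ± 4.69 in CTRL and 16.2% ± 1.39 in hnCD16, and 56.1% ± 16.3 in FR1 and 53.4% ± 19.2 in FR2. RSEM divides reads among overlapping transcripts, so a 0 is an allocation and not a count of reads, and with 53 to 70 counts per FR library the shares of single transcripts varied widely there.

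**Figure D2:**
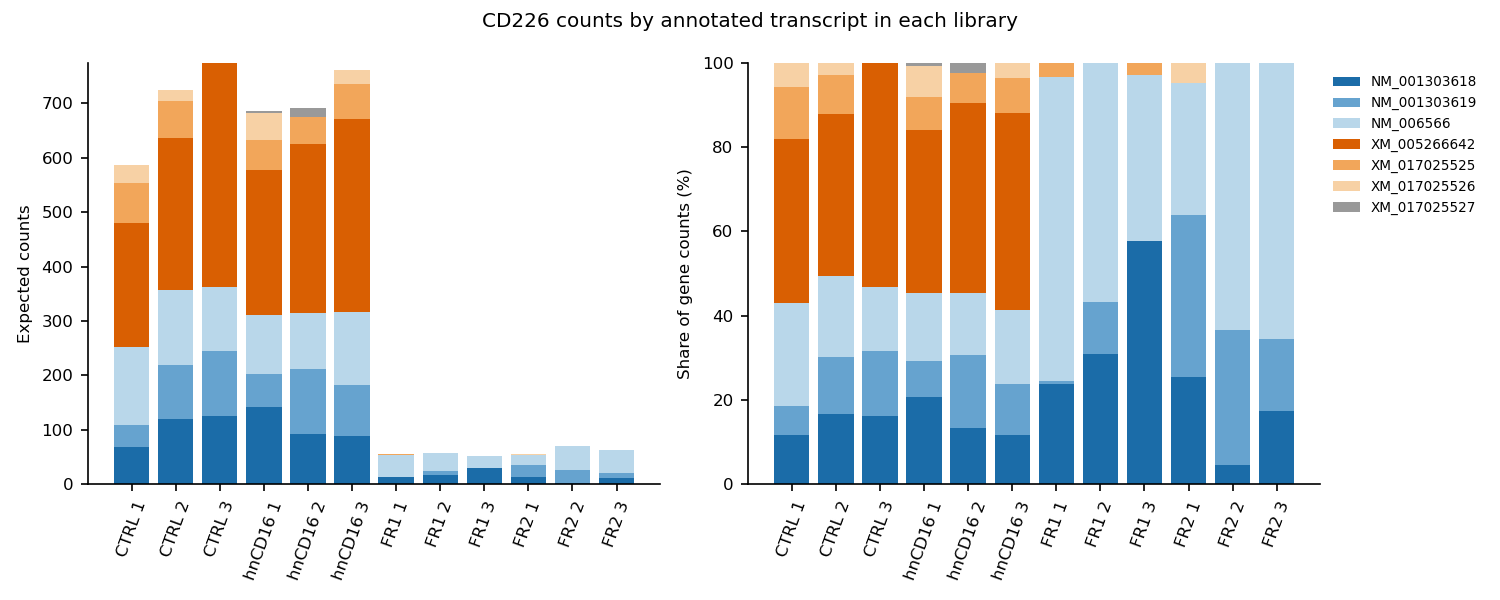
CD226 expected counts (left) and shares of the gene's counts in percent (right) by annotated transcript, one stacked bar for each of the 12 libraries. XM_005266642 takes 38.6% to 53.2% in CTRL and hnCD16 and is listed at 0 in the 6 FR bars, whose totals are 53 to 70 counts.

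CD96, which shares the ligand PVR with CD226, fell as well. It had 69, 86 and 111 counts in CTRL, 98, 86 and 103 in hnCD16, 10, 11 and 12 in FR1, and 4, 14 and 7 in FR2. The pairs did not overlap, and the groups within each pair did. Relative to hnCD16 the log2 fold change of CD96 was -3.01 ± 0.26 in FR1 and -3.43 ± 0.28 in FR2, with edgeR adjusted p of 8.33e-09 and 2.82e-09. The FR2 value became -4.02 without FR2 replicate 2, and leaving out any 1 library kept it between -4.02 and -3.06. The ratio of CD96 to CD226 in TPM was 0.291 ± 0.0581 in CTRL and 0.315 ± 0.0270 in hnCD16 libraries, against 0.584 ± 0.0787 with FR1 and 0.354 ± 0.185 with FR2 (SD, n = 3). FR1 lay above CTRL and hnCD16 without overlap, with an exact permutation p of 0.1 each, the smallest possible, whereas FR2 overlapped hnCD16 with an exact p of 0.9. The TPM of CD226 depends on how RSEM divides its reads among transcripts, and the contrast was smaller in counts. Summed counts of CD96 and CD226 were 287 and 2141 in hnCD16, 33 and 165 in FR1, and 25 and 188 in FR2. CD96 lies at chr3:111292719-111665750 on the plus strand.

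TIGIT, the inhibitory receptor of this group, was close to the detection floor throughout. It had 2, 1 and 11 counts in CTRL, 16, 21 and 9 in hnCD16, 0 in all FR1 libraries, and 0, 5 and 0 in FR2. FR1 and FR2 lay below hnCD16 without overlap, while CTRL overlapped hnCD16 and FR2. Against a floor of 3 counts per library, TIGIT was at least 4.79-fold lower in FR1 than in hnCD16 and at least 1.35-fold lower than in CTRL. Its log2 fold change in FR2 against hnCD16 was -3.04 ± 0.83, with an edgeR adjusted p of 0.00344. That value rested on few libraries: it was -6.94 without FR2 replicate 2, which holds all 5 counts of the group, and -2.45 without FR2 replicate 1, and it stayed a DEG in both fits. In FR1 against CTRL the edgeR adjusted p was 0.0232, and it ran from 0.0520 to 0.135 without CTRL replicate 3 or any 1 FR1 library. In FR2 against CTRL it was 0.296, and the log2 fold change of -1.26 became 0.31 without CTRL replicate 3 and -5.15 without FR2 replicate 2. Of the TIGIT counts in hnCD16, the reference NM_173799 held 0.92 to 3.43 per library and the predicted XM_024453388 8.48 to 19.5. TIGIT lies at chr3:114276913-114310288 on the plus strand.

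Per transcript length, the order of the 10 genes also changed between the pairs. In CTRL, CD226 led at 9.34 ± 1.32 TPM (SD, n = 3), followed by CD96 at 2.75 ± 0.904 and HAVCR2 at 2.59 ± 0.140, whose ranges overlapped, and CD28 at 1.34 ± 0.271. In hnCD16 the first genes were CD226 at 9.46 ± 0.943, CD96 at 2.98 ± 0.410, HAVCR2 at 2.19 ± 0.490 and CD28 at 1.16 ± 0.172 TPM. In FR1, CD28 led at 32.5 ± 0.781 TPM, followed by LAG3 at 11.8 ± 0.687, CTLA4 at 10.1 ± 0.186, HAVCR2 at 8.20 ± 0.502 and PDCD1 at 7.88 ± 0.275. Among these 5, HAVCR2 and PDCD1 alone overlapped. In FR2, CD28 at 42.3 ± 2.66 TPM was followed by LAG3 at 15.5 ± 0.539 and HAVCR2 at 14.9 ± 1.13, which overlapped, then PDCD1 at 6.20 ± 0.569 and CTLA4 at 4.41 ± 0.830. CD274 was sixth in both FR groups, at 3.40 ± 0.785 and 3.25 ± 0.925 TPM, and overlapped CTLA4 in FR2. CD226, at 0.447 ± 0.0153 and 0.513 ± 0.0416 TPM, led the 4 low genes there.

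Within the FR pair, CTLA4 was the single receptor to pass as a DEG of FR1 against FR2, where 1.93% of all genes did, 0.439% higher and 1.49% lower. CTLA4's level was 11.7 ± 0.207 CPM in FR1 and 5.04 ± 0.884 CPM in FR2 (SD, n = 3), a log2 fold change of 1.21 ± 0.13 (SE) with an edgeR adjusted p of 1.86e-05. The constructs differ by the 2B4 domain, which FR2 lacks, but FR1 and FR2 also differed in FCGR3A counts, and each is 1 separately transduced and sorted population, so the domain, the receptor level and the population cannot be told apart. Leaving out any 1 library kept the CTLA4 log2 fold change between 1.07 and 1.29. Another 4 receptors passed the adjusted p without reaching 2-fold. Of all 13657 genes, 4939 passed the adjusted p in this comparison, so such a pass is common. PDCD1 was higher in FR1 by 0.34 ± 0.12 (edgeR adjusted p = 0.0406). HAVCR2 was lower in FR1, at -0.85 ± 0.093 (edgeR adjusted p = 3.48e-06). LAG3 and CD28 were lower too, at -0.38 ± 0.10 and -0.37 ± 0.058, with edgeR adjusted p of 0.00911 and 0.000101. For all 5 genes the FR1 and FR2 libraries did not overlap. The share of all genes without overlap was not computed, so this is not read as particular to these receptors. CD274, CD226, CD96 and ICOS overlapped between FR1 and FR2 and did not pass. The TPM ratio of CTLA4 to CD28, which share the ligands CD80 and CD86, was 0.309 ± 0.0107 in FR1 and 0.104 ± 0.0186 in FR2 (SD, n = 3). The ratios did not overlap, with an exact permutation p of 0.1, the smallest possible. CTLA4 was higher and CD28 lower in every FR1 library than in any FR2 library, so this outcome was also fixed in advance.

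Between hnCD16 and CTRL, TIGIT alone of the 10 receptors passed as a DEG, where 0.527% of all genes did. Its log2 fold change was 1.79 ± 0.66, with an edgeR adjusted p of 0.0413. The fold change became 3.32 without CTRL replicate 3 and 1.29 without CTRL replicate 2. The groups overlapped, at 9 to 21 and 1 to 11 counts. The reference NM_173799 was low in both, with 0.92 to 3.43 expected counts in hnCD16 and 0.74 to 2.0 in CTRL. Most hnCD16 counts were assigned to the predicted XM_024453388, at 8.48 to 19.5 against 0 to 9.9 in CTRL. The call was lost without CTRL replicate 1 or 2, hnCD16 replicate 1 or 2, FR1 replicate 1 or FR2 replicate 1, with edgeR adjusted p of 0.0524 to 0.175. CD226 differed by 0.14 ± 0.079, CD96 by 0.21 ± 0.18, ICOS by 0.23 ± 0.28, CD28 by -0.045 ± 0.14 and HAVCR2 by -0.090 ± 0.15 on the log2 scale, none past the threshold. PDCD1, CTLA4, LAG3 and CD274 had too few counts in both groups for a fold change.

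**Figure D3:**
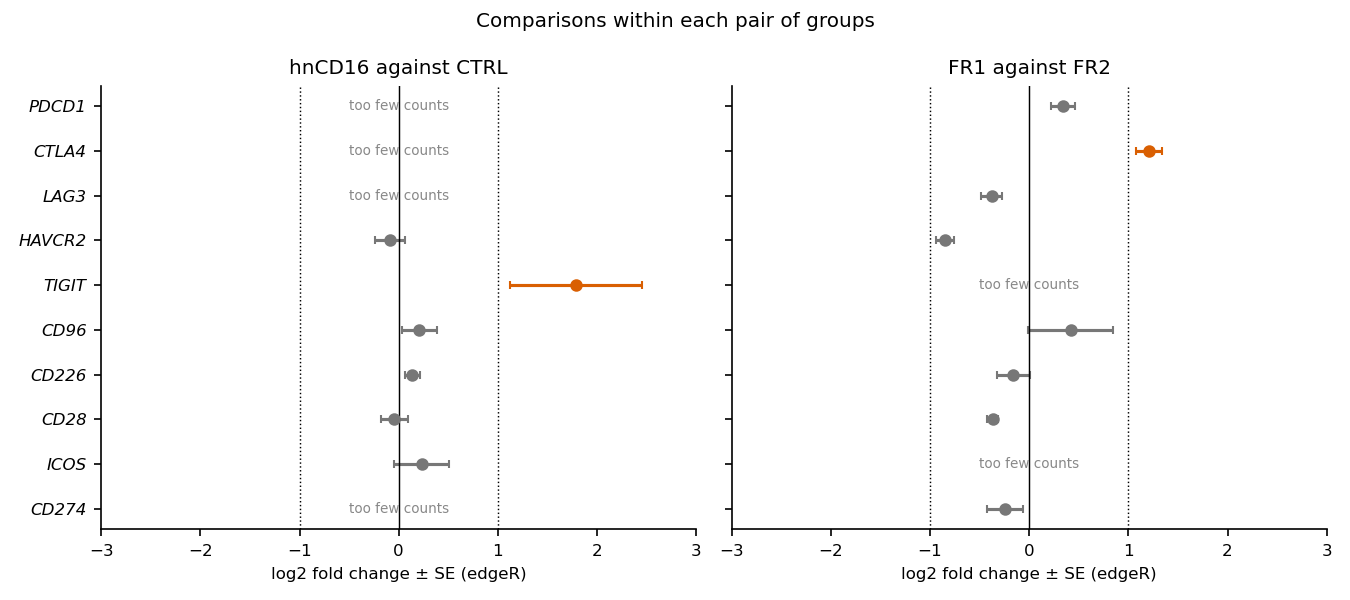
Log2 fold change (edgeR) of each receptor gene with its approximate SE, for hnCD16 against CTRL (left) and FR1 against FR2 (right). Dotted lines mark 1 and -1, coloured points are DEGs, and genes with under 10 counts summed in each group are given no point. CTLA4 at 1.21 and TIGIT at 1.79 are the DEGs.

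Genes that surround these receptors were then counted in 4 lists, other receptors, ligands, signalling adaptors and transcriptional regulators. Of 61 tested list genes, 39 were DEGs of FR1 against hnCD16 and 41 of FR2 against hnCD16. Against CTRL, 36 were DEGs for FR1 and 39 for FR2. Of all genes, 38.3%, 39.5%, 38.0% and 38.2% were DEGs in these comparisons. Some list genes, such as CD86 and ZEB2, passed the low-count filter through FR libraries alone. The lists were also chosen with earlier results of these data known, so their shares do not measure enrichment. In FR1 against hnCD16, 4 of 12 other receptors were higher and 6 lower (83.3% called), with a median log2 fold change of -0.77. CD160, which binds HVEM, rose from 0.738 ± 0.418 to 141.0 ± 3.82 CPM, and ENTPD1 (CD39) from 13.1 ± 0.525 to 318 ± 5.24 CPM. VSIR (VISTA) had 221 to 244 counts with hnCD16 and none in FR1 or FR2, and TMIGD2 (CD28H), a costimulatory receptor of the same family as CD28, fell from 16.7 ± 0.798 to 1.04 ± 0.155 CPM.

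Among the ligands 3 of 11 were higher and 4 lower in FR1 against hnCD16 (63.6% called), with a median of -0.10. CD86, shared by CD28 and CTLA4, had no counts in CTRL or hnCD16, 480 to 532 with FR1 and 722 to 737 with FR2, and CADM1, the ligand of CRTAM, had 0 to 1 counts with hnCD16 and 1971 to 2011 with FR1. PVR, the ligand of CD226, CD96 and TIGIT, fell from 7.46 ± 0.267 to 0.480 ± 0.135 CPM in FR1, and NECTIN3, a nectin that also binds PVR, from 121.9 ± 2.64 to 10.6 ± 0.662 CPM.

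Among 20 signalling genes 4 were higher and 3 lower, with a median of 0.33. That is 35.0% called, near the 38.3% of all genes. CMTM4, a regulator of PD-L1 protein, rose from 0.250 ± 0.133 to 19.9 ± 0.774 CPM and PIK3CD, a PI3K subunit downstream of CD28, from 6.66 ± 0.269 to 152 ± 6.29 CPM. LCK, the T cell receptor kinase, had 1234 to 1337 counts with hnCD16 and 0 to 1 with FR1, and the adaptor GRAP2 had 629 to 647 and 0 to 1. Among 18 regulators 12 were higher and 3 lower (83.3% called), with a median of 1.95. IRF4 rose from 0.503 ± 0.0676 to 724 ± 6.10 CPM, and ZEB2 had no counts in hnCD16 and 1988 to 2040 in FR1. TCF7 fell from 281.0 ± 7.69 to 2.17 ± 0.579 CPM and IKZF2 from 170.6 ± 23.7 to 2.13 ± 0.289 CPM.

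No gene of the 4 lists was a DEG of hnCD16 against CTRL in edgeR or DESeq2, with 27 of 61 at an unadjusted edgeR p under 0.05. At the adjusted p alone 23 of 61 passed, beside 5874 of all 13657 genes, so the lists did not stand out. In FR1 against FR2, 3 of 61 list genes were DEGs, all lower in FR1, where 1.93% of all genes were DEGs. PDCD1LG2 (PD-L2), the second ligand of PD-1, had 4 to 5 counts in FR1 and 13 to 23 in FR2. HHLA2, the ligand of TMIGD2, had 1.78 ± 0.424 CPM in FR1 and 4.75 ± 0.343 CPM in FR2. TOX2, a regulator related to TOX, had 2 to 3 counts in FR1 and 26 to 49 in FR2.

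**Figure D4:**
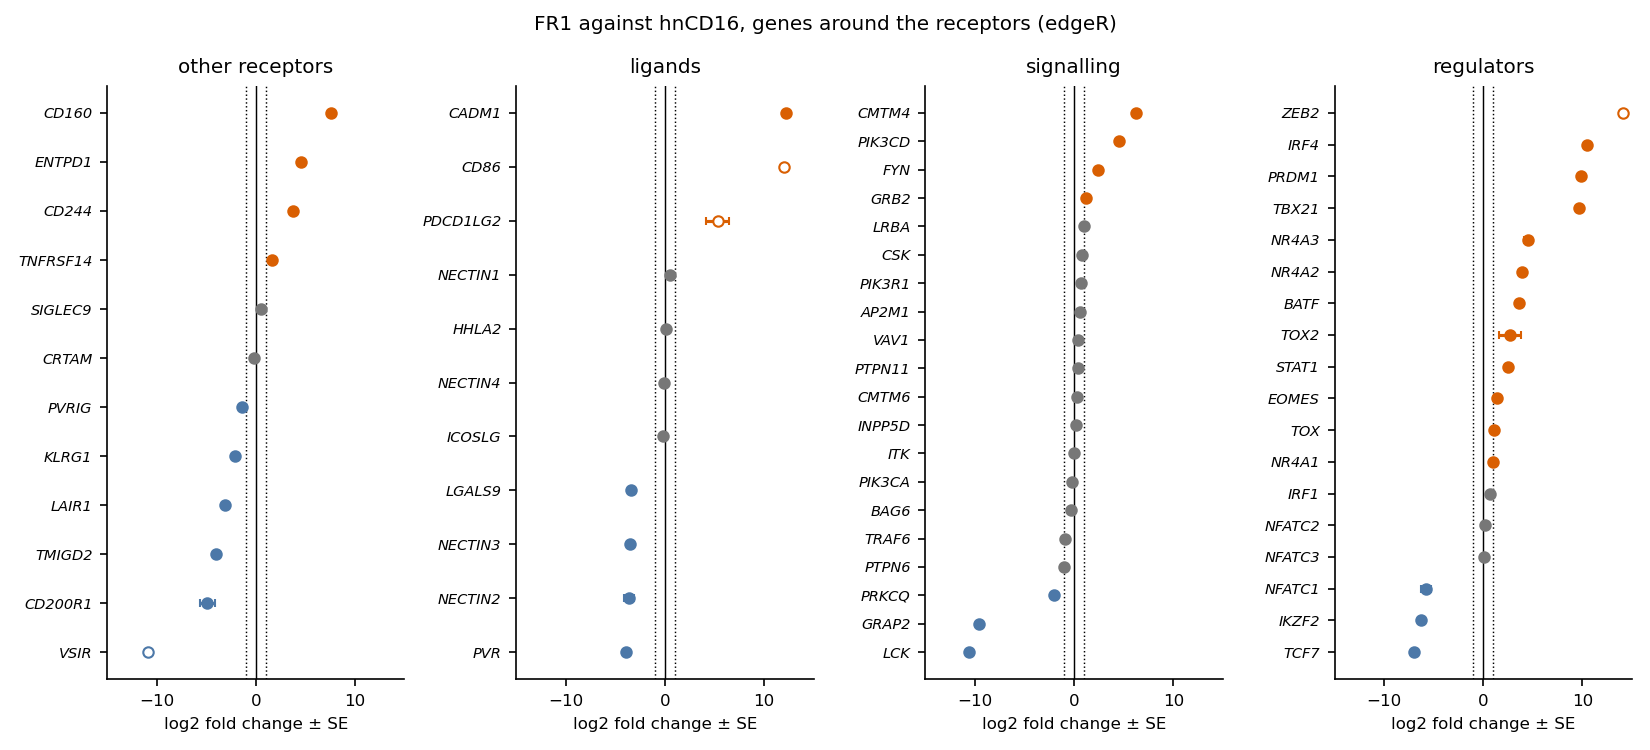
Log2 fold change (edgeR) of FR1 against hnCD16 with its approximate SE for the 61 tested genes of the 4 lists, sorted within each list. Coloured points are DEGs (23 higher, 16 lower), dotted lines mark 1 and -1, and open points have a group at 0 counts, so their fold depends on the model.

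Finally, the genes whose profiles lay nearest to each receptor were found by Euclidean distance of centred log2(CPM + 1) values over the 12 libraries, which share the split between the pairs. STX11 and RGS9 were nearest to CD28 (distances 0.341 and 0.346), SPECC1 and AIFM2 to PDCD1 (0.254 and 0.357), and TGIF1 and ABCA3 to LAG3 (0.336 and 0.387). CTLA4, with its gap between FR1 and FR2, had no neighbour as near, DDX53 and PHLDA1 being at 0.767 and 0.820. HAVCR2 was nearest to GLIPR2 and SUSD6 (0.436 and 0.481), and CD274 to PGBD2 and FGF9 (0.409 and 0.411). Of the lower genes, CD226 was nearest to the zinc finger genes ZNF234 and ZFP30 (0.319 and 0.342) and CD96 to CHRM3 and ZNF577 (0.380 and 0.429). ICOS and TIGIT averaged under 1 CPM and were left out.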

How the data were processed

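RNA of 12 YT libraries (CTRL, hnCD16, FR1 and FR2, 3 each) was rRNA-depleted and sequenced by the authors, who cleaned reads with SOAPnuke 1.5.6, aligned them to GRCh38.p13 with HISAT2 2.1.0 and quantified them with RSEM 1.3.1. Their processing notes also name Bowtie2 2.3.4.3 and DESeq2 1.4.5. The labels' protocol also mentions oligo(dT) beads. The deposited expected counts per gene and per transcript were used, rounded to whole numbers for the gene tests, with the deposited TPM for levels between genes. RSEM gave 5 receptor genes whole gene counts in all libraries (within 0.05), while HAVCR2, TIGIT, CD96, CD226 and CD28 shared reads with other genes. A further 48 deposited columns of FPKM and normalised counts were not used.

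Genes were tested with edgeR 4.0.16 in R 4.3.3 (quasi-likelihood test, TMM scaling, filterByExpr, 1 fit of the 4 groups), with Benjamini-Hochberg adjustment over 13657 genes in each of 6 comparisons. The DEG thresholds were 1 for the size of the log2 fold change and 0.05 for the adjusted p. Each SE was the size of the log2 fold change divided by the square root of the F statistic of its test. It is approximate, above all where a group had 0 counts. Simulated counts for FR1 against hnCD16 (12963 genes tested) gave back 200 of 200 genes changed by 2 on the log2 scale. The changed genes were drawn from those well counted in CTRL, at a fixed dispersion of 0.003. The simulation therefore checks the code and does not cover receptors with few counts in CTRL. Alternatives were limma 3.58.1 fits to log2(TPM + 1) or log2(TPM + 0.1), DESeq2 1.42.0, other scalings and filters, fits of only the compared groups, a replicate term and leaving out each library. Ratios were compared by exact permutation tests, two-sided. Intervals and floors (3 counts) cover counting error only. CPM used TMM-scaled library sizes. Of each list, the named genes were the 2 highest and 2 lowest DEGs of FR1 against hnCD16 with a mean of at least 1 CPM, plus DEGs within a pair. Of the list genes, SIGLEC7, FGL1 and CD200 and the B cell markers MS4A1 and BLK were not analysed here. Positions came from GENCODE v44 and promoter windows from RefSeq. The receptors and lists were chosen with earlier results of these data known.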

Additional observations from a re-analysis of the deposited data

How the results depend on the processing

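The 36 log2 fold changes between the pairs of groups for the receptors other than TIGIT kept their direction under all 768 alternative values, and 4 of them, all for ICOS on log2(TPM + 1), fell under the fold threshold. Requiring 10 counts in every library left 3 receptors testable (HAVCR2, CD226 and CD28), and all 3 were DEGs in the 4 comparisons between the pairs, with 0 in hnCD16 against CTRL and in FR1 against FR2. Under it, 2992 and 3151 of 10758 genes were DEGs of FR1 and FR2 against hnCD16, and 2966 and 2965 against CTRL. The same filter left 21 and 22 list genes as DEGs in FR1 and FR2 against hnCD16, 17 and 20 against CTRL, and 1 in FR1 against FR2. Leaving out 1 library at a time gave 10 receptor DEGs in FR1 and in FR2 against hnCD16, 9 to 10 in FR1 against CTRL, 9 to 10 in FR2 against CTRL and 1 in FR1 against FR2.

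TIGIT in hnCD16 against CTRL was lost under DESeq2, library size scaling, a fit of only the groups compared and both limma fits, which gave 0 receptor DEGs, and leaving out 1 library gave 0 to 1. Without a fold threshold, 5 receptors and 18 list genes passed in FR1 against FR2, beside 4939 of all 13657 genes. In hnCD16 against CTRL 23 list genes passed, beside 5874 of all genes. The limma fit on log2(TPM + 1) gave 1 list gene in FR1 against FR2. Small differences changed sign. Leaving out 1 library, TIGIT in FR2 against CTRL ran from -5.15 to 0.31 (positive without CTRL replicate 3), HAVCR2 in hnCD16 against CTRL from -0.24 to 0.018 (positive without hnCD16 replicate 1) and CD28 in that comparison from -0.16 to 0.059 (positive without replicate 3 of CTRL or, at 0.043, of hnCD16), and CD274 in FR1 against FR2 was 0.060 and 0.081 with the limma fits. The cause was not tested. Scaling by library size alone moved the median of all genes to -0.22 in FR1 against CTRL, -0.17 in FR2 against CTRL and -0.12 in hnCD16 against CTRL, and there the share of higher calls fell from 40.3% to 23.2%.

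Libraries with the same replicate number paired unevenly. In hnCD16 against CTRL their deviations correlated at 0.338, 0.020 and 0.404, with a mean of 0.254. In the other comparisons the mean ran from -0.035 to 0.087, and no comparison had all 3 above 0.1. Whether the numbers mark libraries prepared together was not tested. Under a replicate block the receptor DEGs were 10, 10, 10, 9, 1 and 1 in the 6 comparisons and the list DEGs 39, 41, 36, 39, 0 and 3, as without it. At this depth the floor of 3 counts was 0.160 to 0.169 CPM, so changes of TIGIT, ICOS and the lower levels of PDCD1, CTLA4, LAG3 and CD274 rest on few reads.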
